A study of Homo sapiens with 18 samples.

Results

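NEAT1, MALAT1 and MIR22HG are long noncoding RNAs that are kept largely in the nucleus, and their levels were followed in spheroidal aggregates of 2 brain tumor cell lines exposed to a direct current electric field (dcEF). The members were chosen by name: all rows of the deposited transcript table called NEAT1, MALAT1 or MIR22HG were taken, which gave 3 of 32490 gene names and 29 of 145326 transcripts. Of the 29 transcripts, 7 had a mean of at least 50 estimated counts over the 18 samples and are described singly, 3 of 5 for NEAT1, 2 of 12 for MALAT1 and 2 of 12 for MIR22HG. The lowest of the 7 was the MIR22HG transcript ENST00000574306 with a mean of 177.3 counts, and the highest of those left out was the MALAT1 transcript ENST00000618925 with a mean of 42.8 counts. NEAT1 and MIR22HG were picked from earlier results on the U87 mg time points of these same samples. Every value of theirs that draws on U87 mg samples, comparisons between lines included, is therefore given as a description without a test. MALAT1 and the lists of genes used below were also chosen with earlier results of these data known, so their tests may not be independent of that choice.

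U87 mg is a human glioblastoma line and DAOY a human medulloblastoma line, each grown here as aggregates in Matrigel within electrotaxis channels. RNA-SEQ was done on aggregates at 0 h, that is without field, and after 2 h or 8 h at 250 V/m, with 3 samples in each of the 6 groups of line and time. Each sample pooled 3 channels. The labels say that aggregates of different starting size were combined, whereas the study's methods name only the smaller seeding size for RNA-SEQ. The methods also state that RNA samples were chosen by their quality control before libraries were made. No genetic change or drug was applied to any group. Field and time in the channel cannot be told apart, since no group used here spent 2 h or 8 h in the channel with the field off. Each line is 1 established culture, and in bulk RNA of an aggregate a smaller share of cells that make an RNA and less RNA per cell cannot be told apart.

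NEAT1 is the scaffold of paraspeckles, nuclear bodies that hold RNA-binding proteins such as NONO, SFPQ and PSPC1. Its gene gives a short, polyadenylated RNA and a long RNA that reads through the first polyadenylation site and is needed to build the body. MALAT1, made from the neighboring gene, gathers in nuclear speckles, which store splicing factors such as SRRM2 and SON. The 3′ ends of the long NEAT1 RNA and of MALAT1 are cut by RNase P, which normally matures transfer RNA, and are closed by a triple helix in place of a poly-A tail. MIR22HG is the host gene of microRNA-22 (miR-22), which is cut out of the transcript by DROSHA and DICER1 and lowers target RNAs.

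In GENCODE 29 on GRCh38, NEAT1 (ENSG00000245532) lies at chr11:65422774-65445540 on the plus strand and MALAT1 (ENSG00000251562) at chr11:65497688-65506516 on the same strand. MIR22HG (ENSG00000186594) lies at chr17:1711493-1717174 on the minus strand and overlaps WDR81 on the opposite strand, while MALAT1 overlaps AP000769.2 on the opposite strand. The libraries came from a stranded kit, but whether the reads were assigned with strand is not stated, so reads of the overlapping stretches are uncertain. The microRNAs of MIR22HG lie in exon 3 of the 4-exon transcript ENST00000334146 (MIR22HG-201) and in exon 2 of the 2-exon transcript ENST00000574306 (MIR22HG-208), at chr17:1713914-1713935 for miR-22-3p and chr17:1713952-1713973 for miR-22-5p (RefSeq, GRCh38.p14, minus strand). They are shown because MIR22HG is read here only as the host RNA, with the seed, bases 2 to 8, in capitals:
miR-22-3p: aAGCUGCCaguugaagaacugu
miR-22-5p: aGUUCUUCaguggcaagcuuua

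Both MIR22HG transcripts hold the microRNA, and they differ in splicing at the ends. Exon 1 of MIR22HG-201 joins an 83-base exon 2, which MIR22HG-208 skips, and the last intron of MIR22HG-201, 1303 bases long, is kept whole within exon 2 of MIR22HG-208. Below are the spliced bases around the end of exon 1 in each of these transcripts and around the last junction of MIR22HG-201, from GENCODE 29, with the downstream exon in capitals. The first 15 bases of both exon 1 junctions are the same, so that reads tell these transcripts apart here only by the exon that follows:
MIR22HG-201 exon 1 to 2: cacacccagcaccagGCCCCCAGAACTCTC
MIR22HG-208 exon 1 to 2: cacacccagcaccagGAGCCTGTTCCTCTC
MIR22HG-201 exon 3 to 4: ctcaaacaacccaagGCTTTCTGCCTCCGA
The last of these was found in no other listed MIR22HG transcript, whereas the first and the second were each also in 5 other listed ones, all with means far below 50 counts.

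The long NEAT1 transcript ENST00000501122 (NEAT1-202) is 1 exon of 22743 bases, and the short one, ENST00000499732 (NEAT1-201), has 2 exons and 3441 bases. The third, ENST00000616315 (NEAT1-205), has 512 bases within the span of the short one. Of the 31-base words of NEAT1-202, 84.0% occurred in no other listed NEAT1 transcript, against 0.70% for NEAT1-201 and 4.77% for NEAT1-205. Reads can therefore be assigned to NEAT1-202 over most of its length, while the counts of NEAT1-201 and NEAT1-205 rest largely on how shared reads were divided. By counts, MALAT1 is measured mainly by ENST00000534336 (MALAT1-202), 1 exon of 8708 bases with 27.9% of words of its own. Next is the 2-exon ENST00000508832 (MALAT1-201) of 1519 bases with 1.75%.

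Libraries were made by poly-A selection, and so the runs of A that the genome encodes within these RNAs are shown. The longest such run had 22 bases in NEAT1-202, at chr11:65440843-65440864, and 13 bases in MALAT1-202, at chr11:65506098-65506110, each shown with 10 bases on both sides and the run in capitals:
NEAT1-202: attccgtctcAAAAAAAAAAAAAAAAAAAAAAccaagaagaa
MALAT1-202: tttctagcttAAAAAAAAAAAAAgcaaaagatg
Of the 144253 listed transcripts found in the annotation, 0.695% held a run of at least 22 and 4.37% one of at least 13. The longest run was 5 bases in NEAT1-201 and NEAT1-205 and 7 bases in both MIR22HG transcripts. The part of these runs in what poly-A selection captured was not tested.

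The libraries held 8341976 to 15610886 estimated counts, with mitochondrial genes at 2.83% to 8.44% and lincRNA transcripts at 0.455% to 0.593% of them. The glioma markers VIM and CD44 averaged 4606 and 2962 TPM (estimated counts scaled by transcript length and library depth) in U87 mg and 2221 and 1179 in DAOY, and GFAP, S100B, SOX2 and OLIG2 were at or below 1.16 in U87 mg. EGFR (63.1 against 41.6 TPM) and SOX2 (4.81 against 0.030) were higher in DAOY than in U87 mg. NES averaged 7.52 TPM in U87 mg and 0.488 in DAOY. Of the medulloblastoma markers, ZIC1 and ZIC2 averaged 11.9 and 11.996 TPM in DAOY and 6.90 and 5.39 in U87 mg. OTX2 averaged 1.77 and 0, MYCN 0.585 and 0, and PAX6 23.0 and 25.0, while BARHL1 was at 0 in DAOY. GLI1 and GLI2 were lower in DAOY (0.21 and 1.23 TPM) than in U87 mg (3.56 and 3.49). The listed markers thus set the lines apart only in part. Markers of immune and endothelial cells (PTPRC, CD3E, CDH5) stayed at or below 0.129 TPM in both lines, whereas PECAM1 averaged 8.29 in DAOY. Each library was counted as a sample because the study's methods name them biological replicates. Libraries of 1 group differed by far more than counting noise in every pair, which does not by itself show separate cultures.

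By mean TPM over all times, NEAT1 was the highest of the 3 RNAs and MIR22HG the lowest in both lines, but in DAOY at 2 h MALAT1 exceeded NEAT1 in all 3 samples (means of 40.6 and 36.8). Among 4513 lincRNA names ranked by mean TPM, NEAT1 stood at rank 7 in U87 mg and 27 in DAOY, MALAT1 at 17 and 34, and MIR22HG at 37 and 56. These TPM values are sums over all transcripts of a gene, in which short transcripts such as NEAT1-205, whose reads are mostly shared, weigh more than in counts. For MALAT1, much of the sum came from transcripts below 50 mean counts. In U87 mg at 8 h, its longest transcript held a mean of 20.7% of the MALAT1 TPM and the next by counts 20.3%. In DAOY at 0 h these shares were 22.6% and 36.9%. The MALAT1 sums and ranks are thus not levels of these described transcripts alone.

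**Figure D1:**
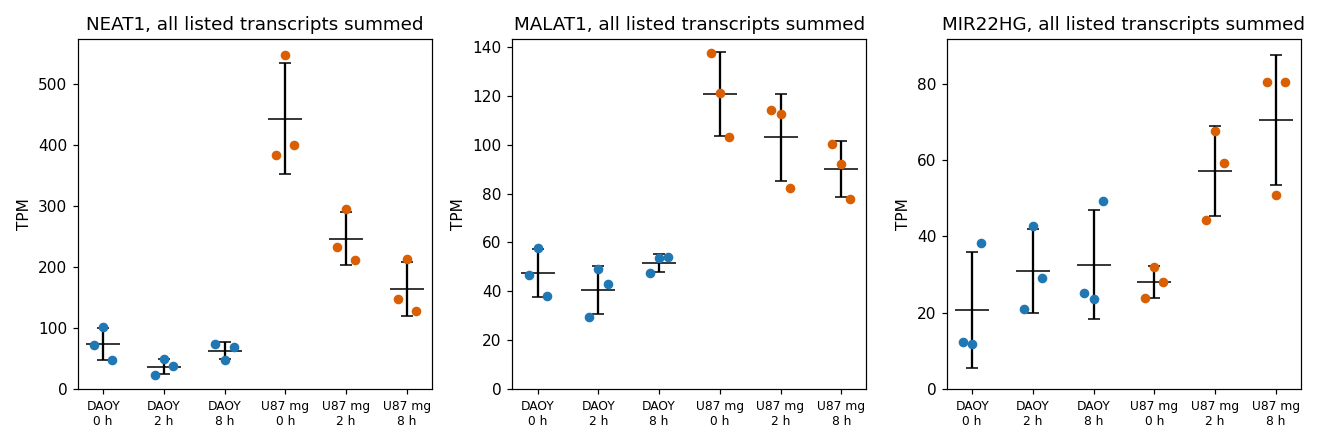
Summed TPM of NEAT1, MALAT1 and MIR22HG in each of the 18 samples (points), with the mean and SD of the 3 samples of a group (bars), DAOY in blue and U87 mg in orange. NEAT1 and MALAT1 were higher in every U87 mg sample than in every DAOY sample, and MIR22HG had its highest means in U87 mg at 2 h and 8 h. The sums include transcripts below 50 mean counts, which hold much of the MALAT1 TPM.

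NEAT1 in DAOY measured 71.5, 101 and 47.8 TPM at 0 h, 23.7, 49.0 and 37.8 at 2 h, and 73.3, 47.7 and 68.4 at 8 h. In U87 mg it measured 383, 548 and 399 TPM at 0 h, 233, 295 and 211 at 2 h, and 148, 214 and 128 at 8 h. The U87 mg groups came in the order of time, from the highest mean at 0 h (443 ± 90.7 TPM, SD, n = 3) over 246 ± 43.5 at 2 h to 164 ± 44.5 at 8 h. All 3 samples at 0 h lay above all at 2 h, whereas the ranges at 2 h and 8 h overlapped. All U87 mg samples lay above all DAOY samples, whose groups (73.5 ± 26.7 at 0 h, 63.2 ± 13.6 at 8 h, 36.8 ± 12.7 at 2 h) each overlapped with the next.

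The MALAT1 values are sums that include its transcripts below 50 mean counts. MALAT1 in DAOY measured 46.8, 57.7 and 37.9 TPM at 0 h, 29.6, 49.1 and 42.9 at 2 h, and 47.5, 53.7 and 54.0 at 8 h. In U87 mg it measured 138, 121 and 103 TPM at 0 h, 114, 113 and 82.2 at 2 h, and 100, 92.2 and 77.7 at 8 h. Its level thus split the samples by line without overlap, and neighboring groups within a line overlapped. The lowest MALAT1 value of the series, like the lowest NEAT1 value, was in DAOY at 2 h, replicate 0.

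MIR22HG in DAOY measured 12.4, 11.7 and 38.3 TPM at 0 h, 20.9, 42.7 and 29.03 at 2 h, and 25.0, 23.6 and 49.2 at 8 h. In U87 mg it measured 23.8, 32.1 and 28.1 TPM at 0 h, 44.3, 67.7 and 59.3 at 2 h, and 80.4, 50.7 and 80.4 at 8 h. In order of the means, U87 mg at 8 h (70.5 ± 17.1 TPM) and at 2 h (57.1 ± 11.8) came first, followed by DAOY at 8 h (32.6 ± 14.4) and 2 h (30.9 ± 11.0), U87 mg at 0 h (27.97 ± 4.17) and DAOY at 0 h (20.8 ± 15.2). Every pair of neighbors in this order overlapped. DAOY at 0 h was split, with replicate 2 at about the level of the 2 h and 8 h samples; that library also had the lowest mitochondrial share of its line, 2.92%, and the part of this in its MIR22HG level was not tested.

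Without field, MALAT1 was lower in DAOY than in U87 mg. In the fit of all 18 samples with edgeR's quasi-likelihood test on gene sums of counts, it was 2.82-fold lower (log2 fold change −1.495 ± 0.24, SE, adjusted p = 3.97e-05). A gene was called here and below at a Benjamini-Hochberg adjusted p under 0.05 over all genes tested and at least a 2-fold change, and 41.2% of 16482 genes were called in this comparison, 23.4% higher and 17.8% lower in DAOY. For NEAT1 and MIR22HG the comparison uses U87 mg samples at 0 h that also entered the contrasts which chose them, so their differences are a description. NEAT1 was 6.69-fold lower in DAOY at 0 h (−2.74 ± 0.27), where U87 mg had its highest NEAT1 group, while at 8 h the means were 63.2 TPM in DAOY and 164 in U87 mg. MIR22HG lay at −0.81 ± 0.35, with groups that overlapped through the one high DAOY library, and at −1.45 without DAOY replicate 2 at 0 h.

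In DAOY, none of the 3 RNAs passed the test at either time of exposure. At 2 h against 0 h, 0.0% of 15396 genes were called by edgeR, with 424 genes at an unadjusted p under 0.05, 1 gene called by DESeq2 and 0 by limma on TPM. NEAT1 had a log2 fold change of −0.79 ± 0.30 (unadjusted p = 0.0238, adjusted p = 0.999), MALAT1 −0.41 ± 0.26 (adjusted p = 0.999) and MIR22HG 0.59 ± 0.41 (adjusted p = 0.999) in the edgeR fit of the 9 DAOY samples. Without DAOY replicate 2 at 0 h, MIR22HG lay at 1.20 (adjusted p = 0.991 in edgeR). The TPM ranges at 2 h and 0 h overlapped for all 3.

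At 8 h against 0 h, 3.13% of genes were called in DAOY, and NEAT1 and MALAT1 lay close to their starting levels. Their log2 fold changes were 0.07 ± 0.30 (adjusted p = 0.931) and 0.13 ± 0.26 (adjusted p = 0.824), and that of MIR22HG was 0.74 ± 0.41 (adjusted p = 0.323), all by edgeR. The sign for NEAT1 turned with the unit, to −0.17 with limma on log2(TPM + 1), so no direction can be given. MIR22HG depended on the high 0 h library. Without it, the log2 fold change was 1.37, still not called at an adjusted p of 0.0795 in edgeR.

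Between 2 h and 8 h in DAOY, 1.04% of genes were called, and NEAT1 had the largest log2 fold change of the 3 RNAs, 0.86 ± 0.30 (unadjusted p = 0.0162, adjusted p = 0.160 by edgeR). MALAT1 lay at 0.54 ± 0.26 (adjusted p = 0.302) and MIR22HG at 0.15 ± 0.41 (adjusted p = 0.885), neither of them called. The 3 RNAs thus showed no difference between times in DAOY that exceeded the spread between replicates at the adjusted threshold.

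**Figure D2:**
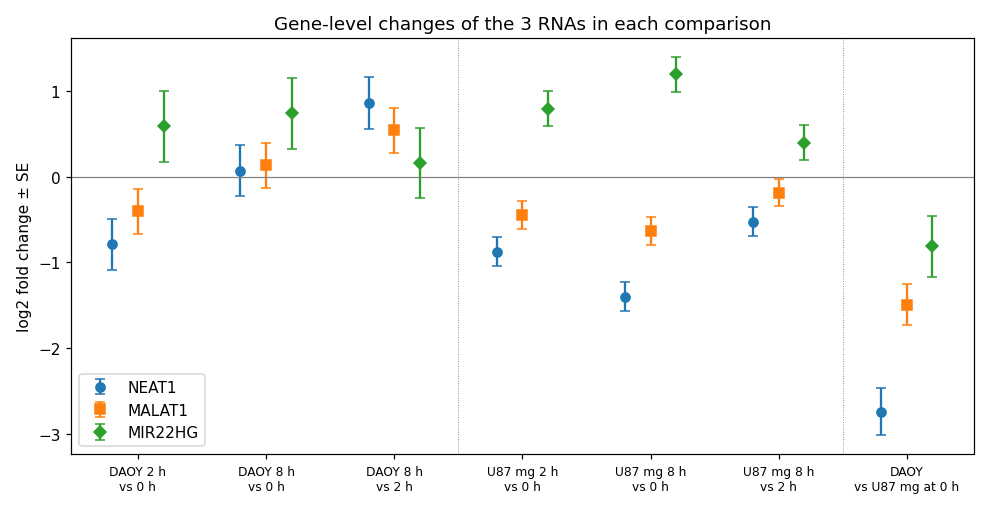
Log2 fold change with its standard error (bars) of NEAT1, MALAT1 and MIR22HG in the 3 time comparisons of each line and between lines at 0 h, from edgeR fits on gene sums of estimated counts. In U87 mg, NEAT1 lay at −1.40 and MIR22HG at 1.19 at 8 h against 0 h, whereas in DAOY the same comparison put NEAT1 at 0.07 and MIR22HG at 0.74.

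In U87 mg, where NEAT1 and MIR22HG had been picked from these comparisons, the values are given without a test. At 2 h against 0 h, the log2 fold change was −0.87 ± 0.17 for NEAT1, −0.45 ± 0.16 for MALAT1 and 0.79 ± 0.21 for MIR22HG. At 8 h against 0 h it was −1.40 ± 0.17 for NEAT1, −0.63 ± 0.16 for MALAT1 and 1.19 ± 0.21 for MIR22HG, that is 2.64-fold lower, 1.55-fold lower and 2.28-fold higher. From 2 h to 8 h the differences were smaller, −0.52 ± 0.17, −0.19 ± 0.16 and 0.40 ± 0.20 in the same order. At 8 h the samples of each RNA lay apart from those at 0 h, and at 2 h those of NEAT1 and MIR22HG did. Over all 14106 genes tested in U87 mg, 0.0% were called at 2 h, 0.638% at 8 h and 0.397% between 2 h and 8 h. Whether the response differed between lines was not tested, because the U87 mg side had chosen the members.

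The NEAT1 sum covers transcripts that can behave differently, and here all 3 transcripts with at least 50 mean counts lay lower at 8 h than at 0 h in U87 mg. NEAT1-202, which alone extends over the long part of the gene, measured 20.5, 27.2 and 17.996 TPM at 0 h, 12.3, 14.2 and 11.97 at 2 h, and 7.44, 9.86 and 7.09 at 8 h. These groups did not overlap, with log2 fold changes of −0.79 ± 0.16 at 2 h and −1.40 ± 0.16 at 8 h. NEAT1-201 lay at −1.13 ± 0.26 and −1.57 ± 0.26, and NEAT1-205 at −0.78 ± 0.22 and −1.31 ± 0.22. Differences among these transcripts within U87 mg were not tested.

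In DAOY, NEAT1-202 measured 3.36, 4.84 and 2.56 TPM at 0 h, 1.10, 2.75 and 2.57 at 2 h, and 4.04, 2.90 and 4.45 at 8 h. All 3 values at 8 h lay above those at 2 h, by 0.90 ± 0.38 on the log2 scale (unadjusted p = 0.0461, adjusted p = 0.583 by edgeR). NEAT1-205 lay apart between the same times, at 1.01 ± 0.46 (adjusted p = 0.615). On transcripts, 0.0% of 41336 were called at 2 h against 0 h, 0.0% at 8 h against 0 h and 0.0% at 8 h against 2 h by edgeR, with 1269, 4276 and 3493 transcripts at an unadjusted p under 0.05. DESeq2 called 170, 950 and 554 transcripts, and none of the 7 member transcripts was called by edgeR, by DESeq2 or with any replicate left out.

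The share of the NEAT1 counts held by NEAT1-202 was 63.0% ± 5.15 (SD, n = 9) in DAOY and 61.2% ± 3.09 (n = 9) in U87 mg. The difference of 1.76 percentage points is a description, since the U87 mg samples chose NEAT1. In U87 mg its means were 59.2%, 63.2% and 61.25% at 0 h, 2 h and 8 h.

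MALAT1-202 held a smaller part of the MALAT1 counts in DAOY, 77.4% ± 2.98 (SD, n = 9), than in U87 mg, 80.7% ± 1.46 (n = 9). The difference of −3.36 percentage points had p = 0.014 (exact permutation test, two-sided, with lines permuted within each time over 8000 assignments, adjusted p = 0.042 over 3 RNAs), but as a share of TPM it was −0.908 percentage points with p = 0.449. The rest of the counts went mostly to MALAT1-201, which measured 17.3 ± 2.15 TPM in DAOY and 30.1 ± 5.49 in U87 mg at 0 h (SD, n = 3). MALAT1-202 itself measured 10.6 ± 1.48 and 31.3 ± 5.11 TPM in the same groups. At 8 h in U87 mg it lay at −0.71 ± 0.17 and MALAT1-201 at −0.68 ± 0.20 against 0 h, close to each other.

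**Figure D3:**
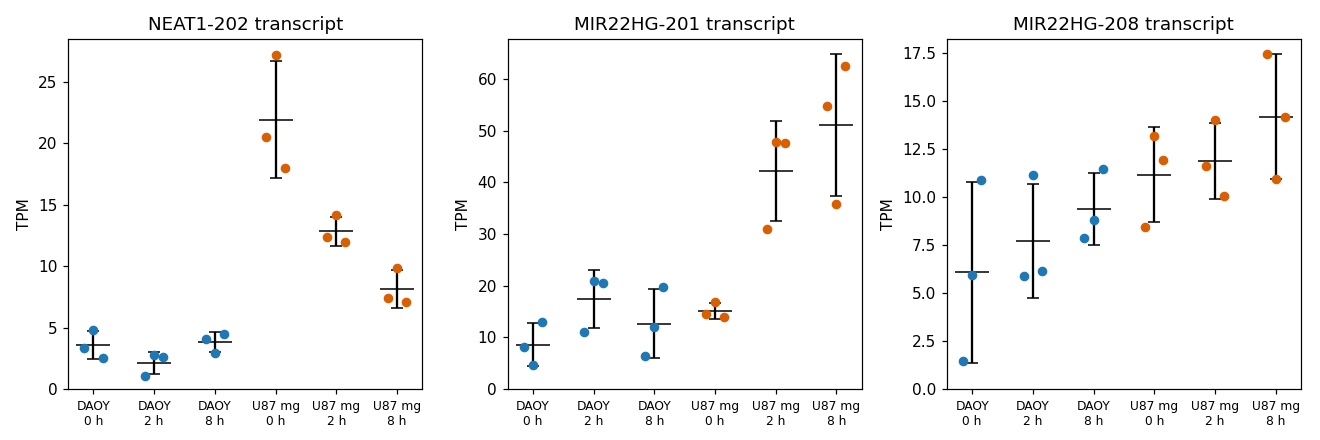
TPM of the long NEAT1 transcript (NEAT1-202) and of both MIR22HG transcripts with at least 50 mean counts in each sample (points), with group mean and SD (bars), DAOY in blue and U87 mg in orange. In U87 mg, MIR22HG-201 measured 14.0 to 16.8 TPM at 0 h and 35.9 to 62.5 at 8 h, while MIR22HG-208 measured 8.41 to 13.1 and 10.9 to 17.4.

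In U87 mg, the MIR22HG transcript with the higher values at 2 h and 8 h was the fully spliced one, described here without a test. MIR22HG-201, the 4-exon form, measured 14.5, 16.8 and 14.0 TPM at 0 h, 30.9, 47.7 and 47.6 at 2 h, and 54.7, 35.9 and 62.5 at 8 h. MIR22HG-208, which skips exon 2 and keeps the last intron, measured 8.41, 13.1 and 11.9 TPM at 0 h, 11.6, 14.0 and 10.0 at 2 h, and 17.4, 10.9 and 14.2 at 8 h. MIR22HG-201 thus lay apart from 0 h at both times, by 1.45 ± 0.27 at 2 h and 1.81 ± 0.27 at 8 h on the log2 scale. MIR22HG-208 overlapped with 0 h at both, by 0.06 ± 0.26 and 0.40 ± 0.26. As a share of the MIR22HG counts, MIR22HG-201 went from 39.7% ± 5.01 at 0 h to 61.8% ± 6.74 at 2 h and 61.7% ± 4.76 at 8 h (SD, n = 3), and MIR22HG-208 from 57.7% ± 4.21 to 35.6% ± 6.29 and 34.7% ± 3.69. No sample at 2 h or 8 h overlapped with one at 0 h in these shares. This is a description from the contrasts that chose MIR22HG, and transcript counts carry the error of dividing shared reads. Only 3.25% of the 31-base words of MIR22HG-201 and 16.1% of those of MIR22HG-208 occurred in no other listed MIR22HG transcript. The values and shares of both thus rest largely on how shared reads were divided.

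In DAOY, MIR22HG-201 measured 8.11, 4.63 and 13.04 TPM at 0 h, 11.0, 20.9 and 20.6 at 2 h, and 6.33, 11.95 and 19.7 at 8 h. MIR22HG-208 measured 1.44, 5.93 and 10.8 TPM at 0 h, 5.85, 11.1 and 6.13 at 2 h, and 7.87, 8.79 and 11.5 at 8 h. Their ranges overlapped between all times. The log2 fold change of MIR22HG-201 was 1.00 ± 0.54 at 2 h (adjusted p = 1.0) and 0.62 ± 0.54 at 8 h (adjusted p = 0.821) by edgeR, and that of MIR22HG-208 was 0.35 ± 0.60 (adjusted p = 1.0) and 0.72 ± 0.60 (adjusted p = 0.809). MIR22HG-208 held 48.4% ± 22.8, 43.2% ± 6.39 and 53.0% ± 7.38 (SD, n = 3) of the MIR22HG counts in DAOY at 0 h, 2 h and 8 h. Set beside U87 mg, these means lay lower at 0 h and higher at 2 h and 8 h. At 0 h its share in DAOY ran from 24.0% to 69.0%, far wider than the 52.9% to 61.0% in U87 mg.

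NEAT1 and MALAT1 went together across samples within each line. On log2 CPM (counts scaled to library depth), Pearson's r was 0.91 and Spearman's rho 0.80 over the 9 DAOY samples, and 0.86 and 0.87 over the 9 U87 mg samples. Without the 2 samples farthest from the median of NEAT1, r was 0.83 and 0.71, and between deviations from the group means it was 0.85 in DAOY and 0.51 in U87 mg. NEAT1 and MIR22HG had r of −0.11 in DAOY and −0.87 in U87 mg, and in U87 mg this fell to −0.24 between deviations from the group means. These correlations are descriptions over samples that share library preparation and depth, and in U87 mg they hold the time differences that chose the members.

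**Figure D4:**
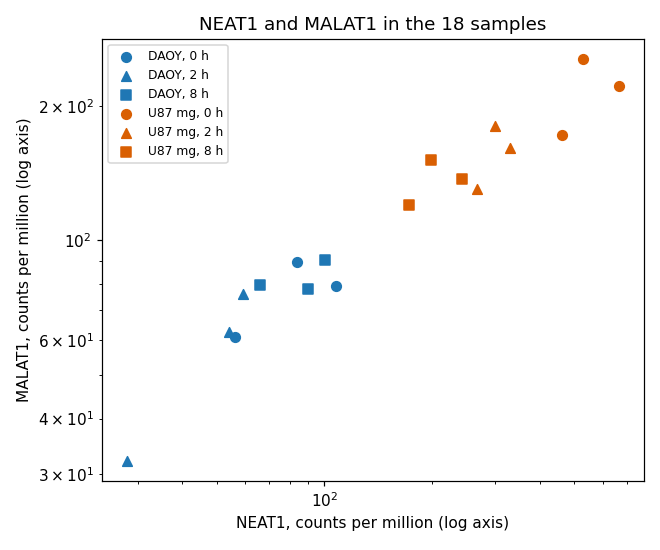
CPM of NEAT1 (x axis, log scale) against MALAT1 (y axis, log scale) in the 18 samples, by line (color) and time (symbol). The U87 mg samples lie above and to the right of all DAOY samples, and within DAOY one sample at 2 h lies lowest on both axes.

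To find genes with the most similar pattern, the smaller of the Pearson correlations in DAOY and in U87 mg was ranked over 9884 genes with at least 50 mean counts in both lines. MALAT1 ranked first for NEAT1 (r = 0.91 in DAOY and 0.86 in U87 mg), and NEAT1 first for MALAT1. Next for NEAT1 came AC005154 (0.81 and 0.73), WDR27 (0.70 and 0.74), CTD-2270P14 (0.69 and 0.84) and FAM46A (0.66 and 0.73). Next for MALAT1 came ZNF337 (0.85 and 0.84), WDR27 (0.79 and 0.90), AC005154 (0.90 and 0.79) and CAPRIN2 (0.76 and 0.80). AC005154 and WDR27 were thus near both RNAs, which themselves went together in these samples. All of these genes were picked as the highest of 9884 over the same samples, so their correlations are a description without a test.

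MIR22HG had a different set of nearest genes. First was BAG1, a co-chaperone of HSP70 (r = 0.91 and 0.94), followed by MED10, a Mediator subunit (0.84 and 0.88), the transcription factor ETS2 (0.79 and 0.83), AKAP17A (0.79 and 0.85) and KDM2A, a histone demethylase (0.83 and 0.78). BAG1 measured 78.3, 84.6 and 119 TPM in DAOY at 0 h, with replicate 2 highest, as for MIR22HG. Of these 5 genes, ETS2 and AKAP17A had the largest log2 fold changes at 8 h against 0 h in DAOY, 1.06 ± 0.27 and 1.26 ± 0.31. ETS2 had risen from 10.1, 19.4 and 23.3 TPM to 26.8, 35.9 and 44.2. These genes were chosen for following MIR22HG across the same samples, in which MIR22HG had a higher mean at 8 h than at 0 h. That choice favors genes that rise with time, so their changes are a description without a test.

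Of 24 listed genes for paraspeckle proteins, all tested, 2 were called between lines at 0 h, where 41.2% of all genes were, and the list's median log2 difference was 0.26 against 0.05 for all genes, while NEAT1 lay at −2.74. PSPC1, a core paraspeckle protein, was 2.89-fold higher in DAOY (1.53 ± 0.16, adjusted p = 2.68e-07) and CIRBP, a cold-inducible RNA-binding protein, 2.17-fold higher (1.12 ± 0.15, adjusted p = 3.77e-06 by edgeR). NONO lay at 0.50 ± 0.11 and SFPQ at 0.68 ± 0.18, below 2-fold. At 8 h against 0 h, SFPQ passed the adjusted threshold below 2-fold in DAOY (0.79 ± 0.19, adjusted p = 0.0404) and in U87 mg (0.71 ± 0.15, adjusted p = 0.0386 by edgeR). RBM12 did so in both lines as well (0.67 ± 0.13 and 0.75 ± 0.12), TARDBP in DAOY (0.65 ± 0.14) and CPSF6 in U87 mg (0.52 ± 0.11). Over all genes, 900 of 15396 in DAOY and 243 of 14106 in U87 mg passed the adjusted threshold in this comparison, at any fold change. The same background holds for the genes below 2-fold in the lists that follow. CIRBP was also the only gene of the paraspeckle list called in DAOY with time. It fell at 8 h from 105, 193 and 160 TPM to 73.7, 71.8 and 72.5 (−1.07 ± 0.16, adjusted p = 0.0106). In U87 mg no member was called at 2 h or 8 h, where the medians were 0.05 and 0.14.

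Of 20 genes for nuclear speckle proteins, 2 were called between lines, both higher in DAOY, where 23.4% of all genes were: DDX39B (1.66 ± 0.18, adjusted p = 4.08e-07) and RNPS1 (1.12 ± 0.16, adjusted p = 1.125e-05 by edgeR). DDX39B is an RNA helicase of splicing and export, and RNPS1 is part of the complex left at exon junctions. The median of the 20 was 0.43. SRRM2 lay at 0.50 ± 0.14 and SON at 0.33 ± 0.16. None was called with time in either line, though CLK1, PNN and SRRM2 in DAOY and RBM25 in U87 mg passed the adjusted threshold below 2-fold at 8 h against 0 h. The medians then were 0.36 in DAOY and 0.23 in U87 mg.

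Of the 12 genes for RNase P, RNase Z and METTL16, which bind or cut the 3′ ends of NEAT1 and MALAT1, 2 were called between lines. They were the RNase P subunits RPP21 (1.37 ± 0.28) and RPP40 (1.89 ± 0.26), both higher in DAOY, where 23.4% of all genes were, with a median of −0.22 over the 12. METTL16, which binds the MALAT1 triple helix, lay at −0.07 ± 0.13. None of the 12 was called with time, and the medians at 8 h were −0.24 in DAOY and −0.05 in U87 mg.

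For the processing of miR-22, 4 of 14 genes for microRNA maturation and Argonaute complexes were called between lines, all higher in DAOY, against 23.4% of all genes. These were DICER1 (1.19 ± 0.15), the export factor XPO5 (1.60 ± 0.14), AGO3 (1.27 ± 0.21) and TNRC6C (1.30 ± 0.24). DROSHA lay at 0.41 ± 0.14. None was called with time in either line. AGO2 (0.98 ± 0.15) and TNRC6A (0.71 ± 0.13) passed the adjusted threshold below 2-fold at 8 h against 0 h in DAOY, TNRC6A also in U87 mg (0.49 ± 0.11), and DROSHA lay at −0.46 ± 0.15 at 8 h in DAOY (adjusted p = 0.0968 by edgeR). Among genes known as miR-22 targets, 15 of 16 were tested between lines, but only 14 passed the filter on low counts within U87 mg. CDK6, PURB and TIAM1 were called higher and PPARA lower in DAOY, against 23.4% and 17.8% of all genes. BMP7 was also higher in DAOY, but was at or below 0.267 TPM in every U87 mg sample at 0 h, so its call is not counted. No target was called with time, though MYCBP passed the adjusted threshold below 2-fold at 8 h against 0 h in DAOY (−0.68 ± 0.16), and the medians at 8 h were 0.05 in DAOY and 0.09 in U87 mg, each close to that of all genes.

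Of 15 tested genes around NEAT1 and MALAT1, 6 were called lower in DAOY than in U87 mg at 0 h and 0 higher. Over all genes, 17.8% were called lower, and the list's median was −0.94 against 0.05 for all genes. The 6 were EHBP1L1 (−2.83 ± 0.24), SIPA1 (−2.53 ± 0.26), CAPN1 (−1.65 ± 0.27), CDC42EP2 (−1.64 ± 0.30), LTBP3 (−1.56 ± 0.33) and MAP3K11 (−1.07 ± 0.30). FRMD8 lay at 0.87 ± 0.29, so the neighborhood did not lie on one side. None of the 15 was called with time in DAOY or in U87 mg.

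Around MIR22HG, 12 genes were tested between lines, but only 10 passed the filter on low counts within U87 mg. Those that passed through DAOY alone had to come out higher there, so the calls between lines are not read as a count. They were SLC43A2 (3.53 ± 0.31), HIC1 (1.73 ± 0.40), TLCD2 (1.67 ± 0.36) and WDR81 (1.13 ± 0.30), whereas MIR22HG itself lay at −0.81. With limma on TPM, 1 or 2 of the 12 were called (pseudocounts 1 and 0.1). WDR81, which overlaps MIR22HG on the other strand, was thus on the opposite side of 0 from it. With time it was not called, and at 8 h against 0 h it lay at −0.60 ± 0.33 in U87 mg and at 0.05 ± 0.27 in DAOY, where MIR22HG lay at 1.19 and 0.74. TLCD2 was the only neighbor called with time, at 8 h in DAOY (1.42 ± 0.36, adjusted p = 0.0471 by edgeR), and PRPF8, next to it, lay at 0.19 ± 0.16.

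**Figure D5:**
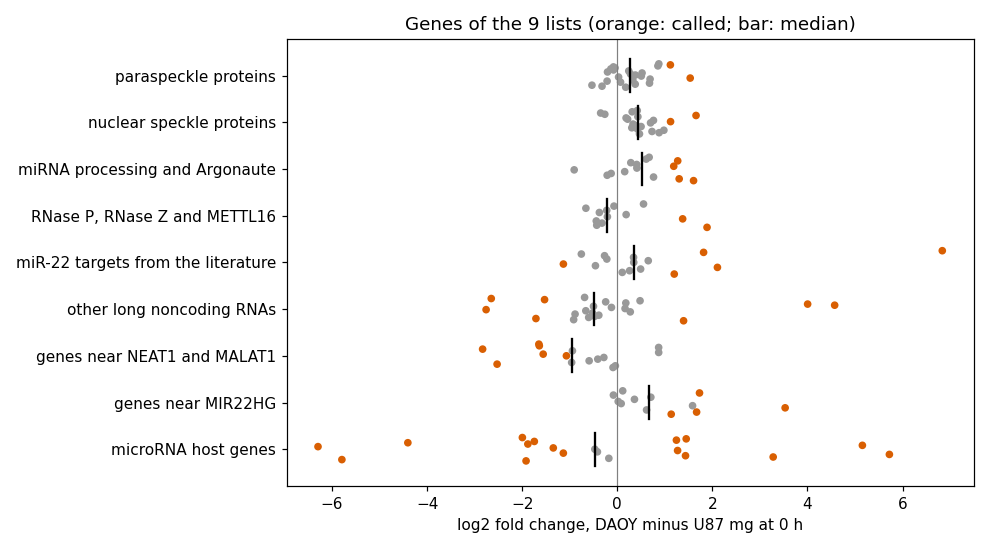
Log2 fold change of each tested gene of the 9 lists between DAOY and U87 mg at 0 h (points), with called genes in orange and the list median as a bar. The genes near NEAT1 and MALAT1 have a median of −0.94. The median of those near MIR22HG, 0.66, includes genes that passed the filter through DAOY alone and had to come out higher there. The orange points also include such genes of other lists, whose calls are not counted in the text.

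Of other long noncoding RNAs, 22 were tested between lines, but only 20 passed the filter on low counts within U87 mg. DANCR, DLEU2, LINC-PINT and PVT1 were called lower in DAOY and TUG1 higher, against 17.8% and 23.4% of all genes. H19 and HOTAIR were also higher in DAOY, but were at or below 0.347 TPM in every U87 mg sample at 0 h. A gene that passes the filter through DAOY alone has to come out higher there, so these calls are not counted. LINC-PINT (−2.76 ± 0.29) and DANCR (−2.65 ± 0.21) had differences close to that of NEAT1. In DAOY at 8 h, LINC-PINT was the only one called (HOTAIRM1, SNHG1 and LINC00467 passed the adjusted threshold below 2-fold), rising from 9.60, 6.88 and 12.4 TPM to 22.6, 34.0 and 44.4 (2.16 ± 0.33, adjusted p = 0.0102 by edgeR). The list's median at 8 h in DAOY was 0.71 against −0.01 for all genes, and NEAT1 at 0.07 and MALAT1 at 0.13 lay below it. In U87 mg the median at 8 h was −0.01, no member was called against 0 h, and MEG3 was called between 2 h and 8 h (1.02 ± 0.18, adjusted p = 0.0349).

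Of 46 other microRNA host genes, 19 were tested between lines, but only 14 passed the filter on low counts within DAOY and 14 within U87 mg. Those that passed through 1 line had to differ, so their calls between lines are not counted here. At 0 h, MIR34AHG measured 4.23, 7.05 and 6.77 TPM in U87 mg and at most 0.126 in DAOY, and MIR548XHG 8.09, 6.62 and 12.2 in DAOY and at most 0.307 in U87 mg. With time, MIR4697HG alone was called, at 8 h in DAOY (1.49 ± 0.36, adjusted p = 0.0385 by edgeR), from 0.484, 1.35 and 1.36 TPM to 2.38, 2.12 and 3.97. Over the 14 host genes tested within U87 mg, the median at 8 h was −0.14, on the other side of 0 from MIR22HG at 1.19. Over all 9 lists, 2.72% of 147 genes were called at 8 h against 0 h in DAOY and 1.36% between 2 h and 8 h, each near the share of all genes (3.13% and 1.04%). These calls depended on single libraries: without DAOY 8 h replicate 1, 0 list genes were called in either comparison and edgeR called 31 genes in all at 8 h against 0 h. Without DAOY 8 h replicate 2, 1 list gene and 75 genes in all were called at 8 h against 0 h. Between 2 h and 8 h in DAOY, at most 1 list gene was called with any single replicate left out.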

How the data were processed

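RNA-SEQ was measured in 18 samples, 3 for each line and time. The authors assigned reads with Kallisto 0.43.0 to GENCODE 24 transcripts and deposited, per transcript and sample, an estimated count and a TPM value, beside columns of their own Sleuth 0.28.1 comparisons (p-values, q-values and fold changes), which were not used here. Estimated counts were summed by deposited gene name, rounded to whole numbers, filtered with filterByExpr, scaled by TMM and tested with glmQLFTest in edgeR 4.0.16 (R 4.3.3), with the 9 samples of a line, or all 18 between lines, in 1 fit. Standard errors were derived from the F statistics. Calls needed an adjusted p under 0.05 together with a 2-fold or larger difference (log2 threshold 1). Alternatives used DESeq2 1.42.0, limma 3.58.1, other filters and scalings, and each replicate left out. Scripts were tested on simulated data. Named genes were the members, their transcripts, the 5 most similar genes each, and the called or defining genes of 9 lists. Members and lists were chosen with earlier results of these data known. Annotation came from GENCODE 29. Depth ranged from 8341976 to 15610886 counts, and since counts carry no molecular identifiers, errors between replicates and not counting error set the precision. Whether replicates came from separate cultures on separate days is not given in the labels, so p-values measure the spread between these samples. Results for some listed genes are not reported here.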

Additional observations from a re-analysis of the deposited data

How the results depend on the processing

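The members kept their result in 324 of 333 recalculations. In DAOY and between lines, this means the same direction and the same side of the threshold. In U87 mg, it means the same direction and a log2 fold change that moved by less than the SD between replicates. Whether a U87 mg value changed its side of the threshold was not followed. The NEAT1 change at 8 h against 0 h in DAOY turned from 0.07 to −0.17 and −0.18 with limma on log2(TPM + 1) and log2(TPM + 0.1), and without single replicates it ranged from −0.14 to 0.33. The MIR22HG change at 8 h against 2 h in DAOY ranged from −0.16 to 0.43 without single replicates. Between lines, MIR22HG ranged from −1.45 to −0.56 without single replicates with the lowest value without DAOY replicate 2 at 0 h. In U87 mg, MIR22HG at 2 h moved to 1.02 with limma on log2(TPM + 0.1), and MALAT1 at 8 h to −0.41 with limma on log2(TPM + 1). The MALAT1-202 share differed by −0.908 percentage points as a share of TPM, without passing the threshold. Causes were not tested. With a replicate block, ENST00000499732 in DAOY at 8 h against 0 h turned from −0.04 to 0.0396. The other values of the 3 genes in DAOY and between lines kept their call with the block. Without single replicates, the log2 fold change at 8 h against 0 h in DAOY ranged from −0.0126 to 0.22 for ENST00000534336, from −0.22 to 0.0129 for ENST00000508832, from −0.14 to 0.30 for ENST00000501122, from −0.23 to 0.39 for ENST00000499732 and from −0.38 to 0.20 for ENST00000616315, and at 2 h from −0.098 to 1.03 for ENST00000574306. None of these transcripts was called in any of them.

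Same-numbered samples did not deviate together in each pair (correlations of −0.20 to 0.44 in DAOY and −0.17 to 0.26 in U87 mg, with 2 of 9 and 5 of 9 over 0.1), so the replicate block of the paired fit is an alternative only. It called 50 genes at 8 h against 2 h in DAOY and 24 in U87 mg, against 160 and 56.

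Counts of called genes moved more. At 2 h against 0 h in DAOY, DESeq2 called 1 gene and edgeR without a filter 18. In DAOY at 8 h against 0 h, limma called 289 and 307 (pseudocounts 1 and 0.1), the fit of all 18 samples 732 and that of only the 6 compared 178, and 31 to 402 were called without single replicates (lowest without DAOY 8 h replicate 1). In DAOY at 8 h against 2 h, DESeq2 called 387, limma 91 with pseudocount 1, no filter 403, all 18 samples 428, only 6 samples 245, and single replicates left out 0 to 65. In U87 mg at 2 h, DESeq2 and the fit of 6 samples called 2 each, limma 1 with either pseudocount, no filter 57, and single replicates left out 0 to 71 (highest without 0 h replicate 0). In U87 mg at 8 h against 0 h, limma with either pseudocount and the fit of 6 samples called 0, no filter 233, all 18 samples 58, and single replicates left out 0 to 136. In U87 mg at 8 h against 2 h, DESeq2 called 87, limma 0 and 3, no filter 224, sums by gene ID 32, only 6 samples 103, and single replicates left out 0 to 34. Over the 9 lists, 8 genes were called at 8 h against 0 h in DAOY without a filter and with all 18 samples, 2 with 6 samples and 0 to 6 without single replicates. At 8 h against 2 h in DAOY the lists had 5 with DESeq2, 0 with limma (pseudocount 1), 7 without a filter, 1 with the block, 6 with all 18 samples, 4 with 6 samples and 0 to 1 without single replicates. In U87 mg the 1 list gene called at 8 h against 2 h was lost (0) with DESeq2, its size factors, limma, the block and all 18 samples, and 0 to 1 were called without single replicates.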
